A study of Mus musculus with 4 samples.

Results

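The cell cycle brakes of the Cdkn2 and Cdkn1 families and the D cyclins they oppose were described in the dentate gyrus of Eed conditional knockout mice. These are 10 genes, taken by symbol from the 18042 genes of the deposited table: Cdkn2a, Cdkn2b, Cdkn2c and Cdkn2d of the INK4 family, Cdkn1a, Cdkn1b and Cdkn1c of the CIP/KIP family, and the cyclin genes Ccnd1, Ccnd2 and Ccnd3. All 10 were found and all 10 had enough counts to be tested. RNA was sequenced from the hippocampal dentate gyrus of C57BL/6 mice at postnatal day 14, in 2 libraries of Eed conditional knockout (Eed cKO) and 2 of wild-type (WT) mice, which the series describes as biological replicates. The Eed protein belongs to the core of Polycomb repressive complex 2, which methylates histone H3 at lysine 27 and so keeps genes silent. The labels name neither the Cre driver nor the deleted exons, so which cells lost Eed is not known from them, and the WT mice are not said to carry Cre or a floxed allele.

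D cyclins switch on the kinases Cdk4 and Cdk6, which phosphorylate the retinoblastoma protein and so release E2F factors that drive DNA replication. INK4 proteins bind these kinases and keep D cyclins away. CIP/KIP proteins bind whole cyclin and kinase complexes, above all those with Cdk2. The Cdkn2a locus is unusual in that it encodes a pair of unrelated proteins, the kinase inhibitor Ink4a and the Mdm2 inhibitor Arf, which stabilises p53. It is a textbook target of Polycomb repression in mouse fibroblasts and stem cells. In the dentate gyrus, where neurons are still born at this age, Ccnd2 is known for its need in neural progenitor division and Cdkn1c for its part in stem cell quiescence.

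The deposited values are per gene, with all products of a gene together. The Ink4a and Arf transcripts of Cdkn2a (GENCODE M21 transcripts Cdkn2a-201 and Cdkn2a-202) start from different first exons and share exon 2, 341 bases at chr4:89276645-89276985 on the minus strand of GRCm38. The sequences around the junction of exon 1 and exon 2 are shown because they explain why a gene-level count cannot separate the products. Exon 1 is in lower case and exon 2 in capitals.
Ink4a junction: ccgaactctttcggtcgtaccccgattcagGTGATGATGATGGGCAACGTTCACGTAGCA
Arf junction: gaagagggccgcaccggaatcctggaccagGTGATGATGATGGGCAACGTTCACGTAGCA
The 30 bases after the junction are the same in both. The first exon holds 126 coding bases in Ink4a, a whole number of codons, and 190 in Arf, which leaves 1 base over, so exon 2 is read in different frames. Reads from exon 2 and exon 3 therefore belong to either product, and no value below tells Ink4a from Arf.

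The 3 promoters of the locus are shown because Cdkn2a and its neighbour Cdkn2b both changed. Each line gives 200 bases, from 250 to 51 bases before the RefSeq start (GRCm38.p6, minus strand, 5′ to 3′), with every CpG dinucleotide in capitals.
Cdkn2b, chr4:89311083-89311282: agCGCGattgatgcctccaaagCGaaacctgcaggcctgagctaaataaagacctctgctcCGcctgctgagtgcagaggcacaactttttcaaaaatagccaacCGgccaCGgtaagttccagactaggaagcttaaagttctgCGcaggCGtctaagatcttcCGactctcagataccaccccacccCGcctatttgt
Cdkn2a Arf, chr4:89294670-89294869: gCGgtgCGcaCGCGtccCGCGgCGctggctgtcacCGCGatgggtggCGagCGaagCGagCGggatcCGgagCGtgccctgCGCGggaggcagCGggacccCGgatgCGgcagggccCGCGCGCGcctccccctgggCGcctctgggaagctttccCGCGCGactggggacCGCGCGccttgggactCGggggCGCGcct
Cdkn2a Ink4a, chr4:89282243-89282442: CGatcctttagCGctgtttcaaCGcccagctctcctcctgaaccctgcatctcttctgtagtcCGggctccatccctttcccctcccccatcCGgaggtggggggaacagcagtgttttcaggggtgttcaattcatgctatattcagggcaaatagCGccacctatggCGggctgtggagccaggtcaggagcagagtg
The stretches shown hold 10, 34 and 7 CpG. The start sites lie 16413 bases (Cdkn2b to Arf) and 12427 bases (Arf to Ink4a) apart. Over the whole 300 bases of each RefSeq promoter entry, the Arf promoter holds 45 CpG, and 98.1% of the 32851 promoters in the table hold fewer. The Cdkn2b promoter holds 18 and the Ink4a promoter 12, with fewer in 70.3% and 60.4% of promoters, and the median promoter holds 7. RefSeq entries were matched for 7 members with 11 promoters. Other members also have starts that differ in CpG, with 8 and 33 at the starts of Cdkn2c and 2 and 23 at those of Cdkn1a.

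Letters of the E2F motif were searched on both strands as TTTCGCGC, TTTGGCGC and TTTCCCGC. TTTCCCGC was found once among the 11 promoters, in the Arf promoter within the stretch shown, and 1.07% of all promoters hold it (1.84% hold any of the 3 forms). The GC box GGGCGG was found in 9 of the 11, against 35.7% of all promoters. The E-box CACGTG was found in 1, a Cdkn2c promoter, against 7.15%. These matches describe letters in the window and no binding was measured.

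The libraries, recovered from the deposited group means and called Eed cKO A, Eed cKO B, WT A and WT B, held between 17263273 and 17789587 counts. Eed, the targeted gene, had 133 and 142 counts in Eed cKO against 251 and 301 in WT, or 50.2% of WT (limma, adjusted p = 0.0189). Pairs of values within a group run from library A to library B. Eed cKO A stood apart with 3809 counts of Xist, a transcript of the inactive X chromosome, against 8 to 11 in the other libraries. WT B stood apart in choroid plexus RNA. Its 7 listed markers summed to 327 normalized counts, against 24466 to 36709 in the other libraries. Markers of granule neurons, which define the tissue, were read in all libraries. Among these markers, Prox1 had 925 and 860 counts in Eed cKO against 3381 and 4482 in WT, or 22.8% of WT (limma, adjusted p = 0.00488). Mature granule neuron markers fell in 5 of 8 and immature ones in 5 of 8, where 6.44% of all tested genes passed in limma, 3.54% as higher and 2.9% as lower. Mature markers summed to 4481 to 5094 normalized counts in Eed cKO and 8536 to 11319 in WT, and immature markers to 7845 to 8261 in Eed cKO and 11682 to 13630 in WT. Of 8 meningeal fibroblast markers 6 fell and 1 rose, and they summed to 6516 to 7618 in Eed cKO and 18533 to 22897 in WT. Astrocyte markers fell in 4 of 8 and rose in 1, with sums of 57120 to 57267 in Eed cKO and 75569 to 89801 in WT. Of 8 markers of CA pyramidal neurons 4 rose and 1 fell, and they summed to 20041 to 22232 in Eed cKO and 14884 to 16182 in WT. Nov alone differed between the group means by more than these sums did, with 6105 and 9138 counts in Eed cKO against 1365 and 2387 in WT. Without Nov, the markers together were thus not higher in Eed cKO. Wfs1, the marker that fell, had 2184 and 1935 in Eed cKO against 4023 and 5323 in WT. Interneuron markers rose in 2 of 9, with sums of 18170 to 18511 in Eed cKO and 13514 to 13750 in WT. Pericyte and smooth muscle markers fell in 3 of 7, led by Acta2 with 192 and 270 counts in Eed cKO against 1568 and 1603 in WT. Another of them, Tagln, at 5 and 7 counts in Eed cKO against 36 and 28 in WT, could pass the filter only through WT. The list summed to 6483 to 7696 normalized counts in Eed cKO and 7251 to 9060 in WT. Ependymal markers rose in 1 of 5, with sums of 627 to 792 in Eed cKO and 274 to 485 in WT. Of 10 neural stem cell markers 1 rose and 1 fell. Oligodendrocyte precursor markers rose in 1 of 6, with sums of 9614 to 10535 in Eed cKO and 8071 to 8820 in WT. Microglia markers rose in 1 of 7 and Cajal-Retzius markers in 1 of 6. No oligodendrocyte, endothelial or choroid plexus marker passed. No marker on the lists was at 0 in any library. In bulk RNA, fewer cells of a type and less RNA per cell cannot be told apart, and the part of these shifts in the results below was not tested.

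Of the 10 genes, 4 rose in Eed cKO: Cdkn2a, Cdkn2b, Cdkn1a and Ccnd1. None fell, and the other 6 did not pass an adjusted p of 0.05 in limma. Among all 15020 genes tested with limma, 6.44% passed, 3.54% as higher and 2.9% as lower. The same 4 passed with edgeR, which called 6.65% of genes, and with DESeq2, which called 5.97%. At an unadjusted p under 0.05, 7 of the 10 passed, of which Cdkn1b was lower, beside 24.8% of all tested genes. The groups did not overlap in 8 of the 10 genes, beside 56.8% of all tested genes. The median log2 fold change of the 10 was 0.37, against -0.00318 over all tested genes. By family, 2 of 4 INK4 genes, 1 of 3 CIP/KIP genes and 1 of 3 D cyclin genes rose.

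**Figure D1:**
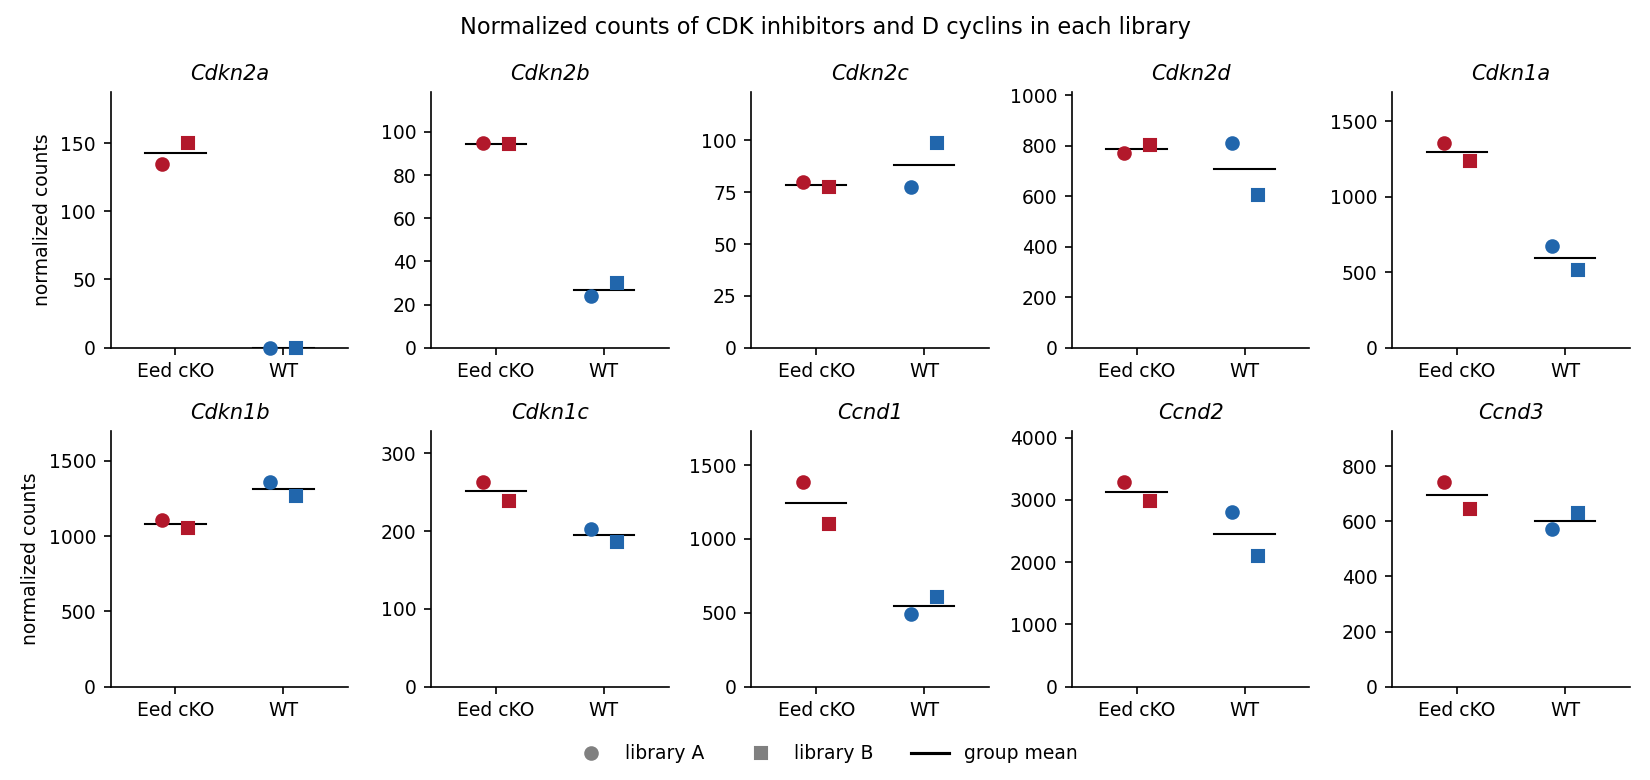
Normalized counts of each gene in the 4 libraries, with Eed cKO left of WT, circles for library A, squares for library B and a bar at each group's mean. Each vertical axis starts at 0. Cdkn2a sits at 0 in both WT libraries, and the groups overlap in Cdkn2c and Cdkn2d.

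These calls rest on both Eed cKO libraries. Without Eed cKO A, or without Eed cKO B, limma called 0 of the 10 and 0% of all tested genes. At an unadjusted p under 0.05, 5 of the 10 passed without Eed cKO A, beside 14.4% of all genes, and 4 passed without Eed cKO B, beside 13.2%. In edgeR, Cdkn2a alone passed without Eed cKO A (adjusted p = 0.0345, 1.05% of all genes) and without Eed cKO B (adjusted p = 0.0336, 0.426% of all genes). When limma was given an extra term that marked Eed cKO A, the library rich in Xist, the term set that library aside. This fit repeats the one without Eed cKO A, with the same log2 fold changes (7.23 for Cdkn2a in both). It is no separate check on Xist. Without WT A, which raised the share of all genes called to 9.23%, and without WT B, at 6.36%, limma kept all 4 calls, and without WT A it added Ccnd2. In edgeR without WT A, 11.1% of all genes passed, and Ccnd2 and Cdkn2d joined the 4.

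Cdkn2a (ENSMUSG00000044303, GRCm38 chr4:89274471-89294653, minus strand) was read in the Eed cKO libraries and not in WT. Eed cKO A held 135 of its reads, with an exact 95% Poisson interval of 113 to 160, and Eed cKO B held 149, with one of 126 to 175. Both WT libraries held 0. The Eed cKO libraries were close to each other, 1.11-fold apart after normalization. The mean was 142 ± 10.5 normalized counts in Eed cKO (SD, n = 2), at least 95.3-fold higher than a WT floor of 3 counts over both WT libraries together (limma, adjusted p = 0.00334). With no WT reads, its fitted log2 fold change of 7.16 depends on the pseudocount, and was 4.88 with a pseudocount of 5. Its adjusted p over all alternatives, from limma, edgeR or DESeq2, ran from 1.72e-08 to 0.186. Since WT was at 0, the filter on low counts could admit Cdkn2a only through its Eed cKO reads. It is the 1 member of the 10 with under 10 normalized counts in both WT libraries. The intervals and the floor cover counting error only.

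Among the 30 tested genes without a WT read, all of which the filter admitted in the same way, Cdkn2a ranked 2 by its Eed cKO mean per kb of exon, at 121 normalized counts per kb. It rested on more reads than any other of them, since without regard to length the next was Prm1, a sperm protamine gene, at 86.1 normalized counts, and the median of the others was 33.0. All 30 passed as higher, a direction that the filter fixed. The profiles nearest to Cdkn2a over the 4 libraries, by Euclidean distance of log2(normalized count + 1), were those of Prm1, Mab21l2, Hoxd8, Hoxc4 and Hoxa7, at distances of 1.08 to 2.12. Prm1 had 70 and 102 counts in Eed cKO against 0 and 0 in WT. Mab21l2, a gene of eye development, had 100 and 99 in Eed cKO against 1 and 0 in WT. Hoxd8, Hoxc4 and Hoxa7 pattern the body axis, and Hoxd8 had 69 and 76 in Eed cKO against 0 and 0 in WT.

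Cdkn2b (ENSMUSG00000073802, chr4:89306299-89311039, minus strand), which encodes the kinase inhibitor Ink4b, rose on top of reads that WT also had. It had 95 and 94 counts in Eed cKO against 24 and 30 in WT. The Eed cKO libraries were nearly equal and stood well above both WT libraries. Its mean was 94.6 ± 0.300 normalized counts in Eed cKO and 26.8 ± 4.33 in WT (SD, n = 2 each), or 3.52-fold (limma, log2 fold change 1.79 ± 0.22 SE, adjusted p = 0.0141). Leaving out each library in limma gave log2 fold changes of 1.63 to 1.95. Per kb of exon, Cdkn2a at 121 ± 8.97 was above Cdkn2b at 68.0 ± 0.216 in Eed cKO, while in WT Cdkn2a was at 0 and Cdkn2b at 19.3 ± 3.11 (SD, n = 2 each).

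Other genes around the locus were examined within 1 Mb of Cdkn2a. The deposited table holds 8 of the 71 annotated genes of this window, many of which are type I interferon genes, and 7 were tested. Cdkn2a and Cdkn2b passed as higher, and the other 5 did not pass. Mtap, the gene of methylthioadenosine phosphorylase 93.4 kb away, had 310 and 257 counts in Eed cKO against 207 and 210 in WT. Its groups did not overlap, as in 56.8% of all tested genes (limma, log2 fold change 0.45, 95% interval 0.12 to 0.77, adjusted p = 0.11). Dmrta1, a DM domain factor 385 kb away on the other side, had 43 and 27 counts in Eed cKO against 26 and 15 in WT, with an interval of -0.18 to 1.71 (limma, adjusted p = 0.282). Klhl9, a ubiquitin ligase adaptor gene 552 kb away, had 1904 and 2154 counts in Eed cKO against 2103 and 2114 in WT, and its interval was -0.25 to 0.15. Hacd4 and Focad, 836 and 863 kb away, had log2 fold changes of 0.22 (95% interval -0.25 to 0.69) and 0.12 (-0.24 to 0.47). Mir31, the precursor gene of a microRNA, had 0 and 2 counts in Eed cKO against 0 and 1 in WT and was not tested.

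**Figure D2:**
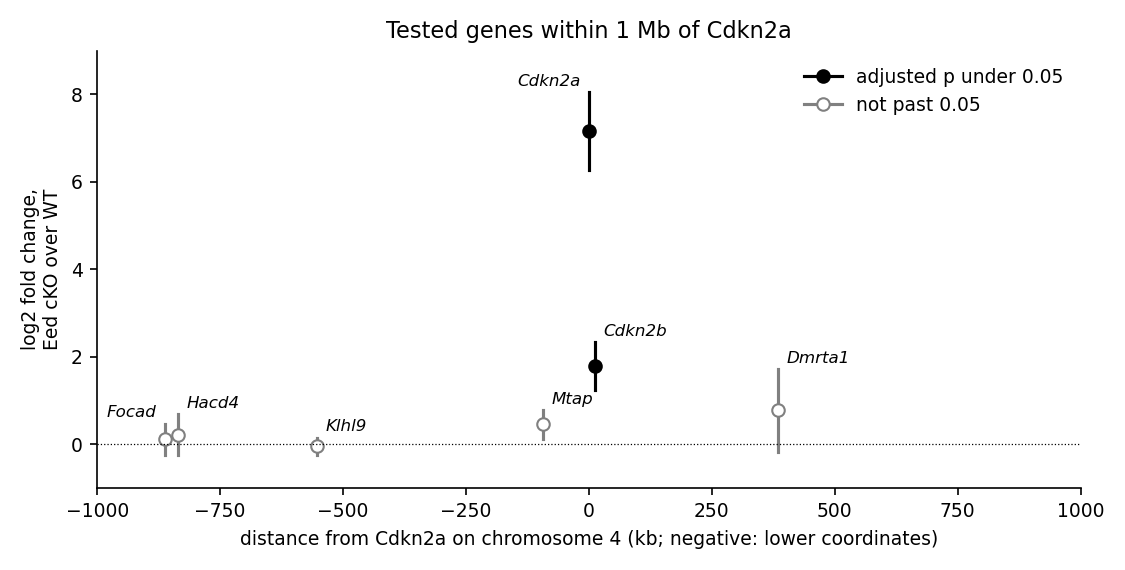
Log2 fold change, Eed cKO over WT, with its 95% interval for the 7 tested genes within 1 Mb of Cdkn2a, by distance in kb along chromosome 4. Filled points passed an adjusted p of 0.05. Cdkn2a (7.16) and Cdkn2b (1.79) are the filled points, and the other 5 lie between -0.05 and 0.77.

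The other INK4 genes did not pass. Cdkn2c (ENSMUSG00000028551, chr4:109660876-109667189), on the same chromosome outside the window, encodes Ink4c, a brake on progenitor division. It had 80 and 77 counts in Eed cKO against 78 and 99 in WT. Its groups overlapped, and the 95% interval of its log2 fold change was -0.63 to 0.33 (limma, adjusted p = 0.676). Its sign was negative with all libraries (-0.15) and positive without WT B (0.02). Cdkn2d (ENSMUSG00000096472, chr9:21288410-21291407) encodes Ink4d, which with the Cdkn1b product keeps mouse neurons out of the cell cycle. It had 773 and 799 counts in Eed cKO against 818 and 607 in WT. WT A lay above and WT B below both Eed cKO libraries, and the interval was -0.18 to 0.52 (limma, adjusted p = 0.514). Its log2 fold change was 0.17 with all libraries and -0.04 without WT B, and edgeR called it higher without WT A (0.38, adjusted p = 0.0417, against up to 0.866 over all alternatives).

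Per kb of exon, Cdkn2d had the highest level of the 10 genes in both groups, at 500 ± 13.8 in Eed cKO and 450 ± 92.3 in WT (SD, n = 2 each). The divisor is the union of all annotated exons of a gene, from 1172 bases (Cdkn2a) to 9409 (Ccnd2). Which transcripts were made was not measured, so a gene with many annotated exons can rank too low. Ranks between genes and family shares per kb hold for this divisor only. Cdkn2d made up 69.6 ± 0.198% of the INK4 level in Eed cKO and 89.3 ± 3.52% in WT. Cdkn2a made up 16.9 ± 0.734% in Eed cKO and 0% in WT, and Cdkn2b 9.48 ± 0.319% in Eed cKO and 3.96 ± 1.28% in WT. Cdkn2c had the lowest level per kb in Eed cKO, at 29.2 ± 0.664, and was at 32.7 ± 5.63 in WT. The INK4 family summed to 703 and 734 normalized counts per kb in Eed cKO, against 561 and 443 in WT.

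**Figure D3:**
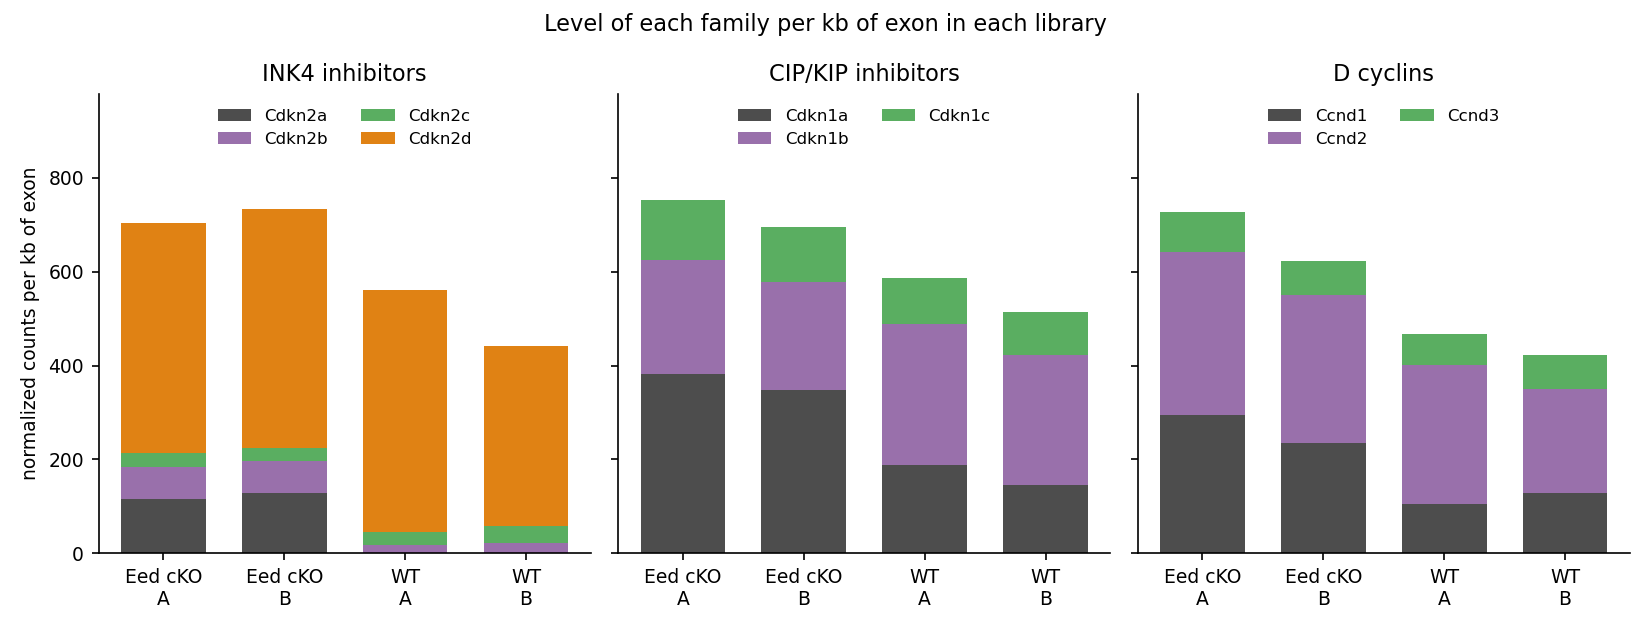
Normalized counts per kb of exon, stacked by gene, in Eed cKO A, Eed cKO B, WT A and WT B for the INK4 inhibitors, the CIP/KIP inhibitors and the D cyclins. The bars of both Eed cKO libraries are higher than those of both WT libraries in each family, and Cdkn2a appears in the Eed cKO bars alone.

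Among CIP/KIP genes, Cdkn1a rose. Cdkn1a (ENSMUSG00000023067, chr17:29090976-29100727, plus strand) encodes the inhibitor Cip1, a classic p53 target that halts division after DNA damage. It had 1357 and 1232 counts in Eed cKO against 678 and 516 in WT. Both Eed cKO libraries lay far above both WT libraries, whose own gap was 1.31-fold. Its mean was 1295 ± 82.9 normalized counts in Eed cKO and 593 ± 111 in WT (SD, n = 2 each), or 2.18-fold (limma, log2 fold change 1.14 ± 0.14 SE, adjusted p = 0.0131). Leaving out each library in limma gave log2 fold changes of 0.94 to 1.33.

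Cdkn1b and Cdkn1c differed in sign, and neither passed. Cdkn1b (ENSMUSG00000003031, chr6:134920401-134925513), the gene of Kip1, which holds cells in quiescence, had 1110 and 1049 counts in Eed cKO against 1372 and 1270 in WT. It was the 1 member whose Eed cKO libraries both lay below both WT libraries, at 82.3% of WT (limma, log2 fold change -0.28, 95% interval -0.46 to -0.10, adjusted p = 0.0878). Cdkn1c (ENSMUSG00000037664, chr7:143458339-143461050), the imprinted gene of Kip2, had 264 and 238 counts in Eed cKO against 205 and 187 in WT. Its groups did not overlap, as in 56.8% of all tested genes, at 1.29-fold (limma, log2 fold change 0.36, 95% interval 0.06 to 0.67, adjusted p = 0.145). The intervals are per gene and not adjusted for the number of genes. Per kb of exon, Cdkn1b led the family in WT with 52.5 ± 2.28% of its level, against 32.7 ± 0.652% in Eed cKO. Cdkn1a made up 50.3 ± 0.424% in Eed cKO and 30.2 ± 2.86% in WT, while Cdkn1c took 17.0 ± 0.228% in Eed cKO and 17.4 ± 0.576% in WT.

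Of the D cyclins, Ccnd1 rose. Ccnd1 (ENSMUSG00000070348, chr7:144929931-144939925, minus strand) encodes cyclin D1, which couples growth factor signals to entry into the cell cycle. It had 1388 and 1096 counts in Eed cKO against 494 and 607 in WT. Libraries of the same group differed by 1.26-fold in Eed cKO and 1.24-fold in WT, less than the gap between the groups. Its mean was 1242 ± 201 normalized counts in Eed cKO and 547 ± 81.6 in WT (SD, n = 2 each), or 2.27-fold (limma, log2 fold change 1.18 ± 0.15 SE, adjusted p = 0.0141). The protein-coding gene Oraov1 overlaps exons of Ccnd1 on the opposite strand, and whether the authors counted by strand is unknown, which makes such pairs uncertain. Oraov1 had 276 and 284 counts in Eed cKO against 293 and 324 in WT. Whether shared reads entered the Ccnd1 counts was not tested.

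Ccnd2 and Ccnd3 did not pass. Ccnd2 (ENSMUSG00000000184, chr6:127125162-127152193), the cyclin D gene of dentate progenitors, had 3293 and 2966 counts in Eed cKO against 2830 and 2103 in WT. The libraries of WT were 1.34-fold apart, and WT A lay close below Eed cKO B. The log2 fold change was 0.37 with a 95% interval of 0.02 to 0.72 (limma, adjusted p = 0.183). Without WT A it was 0.58 and passed (limma, adjusted p = 0.0173), and without WT B it was 0.16 (adjusted p = 0.34). Over all alternatives in limma, edgeR or DESeq2 the adjusted p of Ccnd2 ran from 0.00952 to 0.549. Ccnd3 (ENSMUSG00000034165, chr17:47505051-47599691) had 744 and 644 counts in Eed cKO against 578 and 633 in WT. Eed cKO B and WT B nearly met, and the interval was -0.05 to 0.45 (limma, adjusted p = 0.278). Bysl, on the opposite strand, overlaps Ccnd3 exons and had 878 and 864 counts in Eed cKO against 792 and 749 in WT. The gene 9330179D12Rik, which overlaps Ccnd2 exons in the same way, had 18 and 19 in Eed cKO against 7 and 18 in WT.

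The ratio of Ccnd1 to Ccnd2 counts was higher in both Eed cKO libraries than in both WT libraries, without a test that could pass. It was 0.422 and 0.37 in Eed cKO, against 0.175 and 0.289 in WT. The difference was 0.81 on the log2 scale (exact permutation test over libraries, two-sided, p = 0.333, the smallest that 2 against 2 allows). Per kb of exon, Ccnd2 remained the highest D cyclin in each library, with 49.4 ± 1.95% of the family in Eed cKO and 58.2 ± 7.88% in WT. Ccnd1 took 38.9 ± 2.08% in Eed cKO and 26.3 ± 5.74% in WT, and Ccnd3 11.7 ± 0.134% in Eed cKO and 15.5 ± 2.14% in WT (SD, n = 2 each). The D cyclins summed to 728 and 624 normalized counts per kb in Eed cKO, against 467 and 423 in WT.

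**Figure D4:**
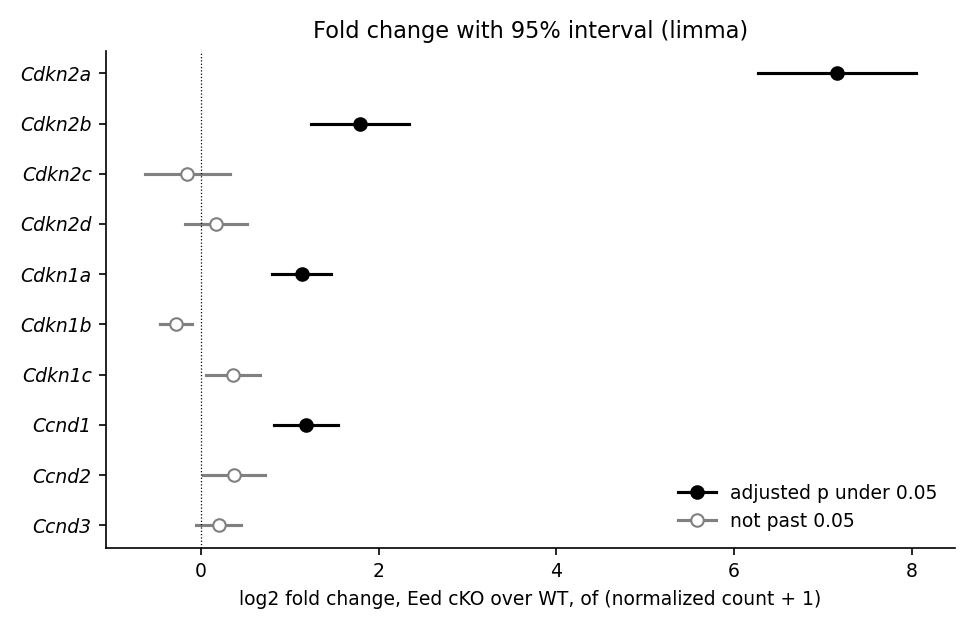
Log2 fold change, Eed cKO over WT, on the log2(normalized count + 1) scale, with 95% intervals from limma. Filled points passed an adjusted p of 0.05. Cdkn2a, Cdkn2b, Cdkn1a and Ccnd1 are the filled points, and the estimates of the other 6 lie between -0.28 and 0.37. Of these 6, the unadjusted intervals of Cdkn1b, Cdkn1c and Ccnd2 also exclude 0.

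Ordered by level per kb of exon, Cdkn2d was followed by Cdkn1a (365 ± 23.3), Ccnd2 (333 ± 23.2), Ccnd1 (264 ± 42.7) and Cdkn1b (237 ± 8.46) in Eed cKO. The libraries of Cdkn1a and Ccnd2 overlapped there, as did those of Ccnd1 and Cdkn1b. Lower came Cdkn1c (123 ± 8.49) and Cdkn2a (121 ± 8.97), which overlapped, and then Ccnd3 (79.1 ± 7.72), Cdkn2b and Cdkn2c. In WT, Cdkn2d was followed by Cdkn1b (288 ± 14.6) and Ccnd2 (260 ± 53.2), which overlapped, then Cdkn1a (167 ± 31.4), Ccnd1 (116 ± 17.3), Cdkn1c (95.5 ± 5.81) and Ccnd3 (68.6 ± 4.68) (SD, n = 2 each). Cdkn2a thus stood beside Cdkn1c in Eed cKO and last in WT.

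Genes that work with these brakes were read from 7 lists, and the share past the threshold is to be read beside 6.44% of all tested genes. In limma no gene of any list passed without either Eed cKO library. None of 21 tested kinases and other cyclins of the cycle passed in limma, edgeR or DESeq2 (median log2 fold change -0.15 in limma). At an unadjusted p under 0.05, 4 passed in limma, beside 24.8% of all tested genes. In edgeR 3 passed, beside 3697 of all 15020 genes, and in DESeq2 2 passed, beside 2383 of 18042. With a filter of 50 normalized counts, Wee1 passed as lower in limma. Cdk4, the main target of the INK4 proteins with Cdk6, had 1614 and 1431 counts in Eed cKO against 1704 and 1757 in WT. Cdk6 had 170 and 125 in Eed cKO against 225 and 204 in WT (95% interval of the log2 fold change -0.98 to -0.10, limma, adjusted p = 0.137). Both kinases had every Eed cKO library below every WT library, where the groups did not overlap in 56.8% of all tested genes. The kinase gene Wee1, which delays mitosis, had the smallest p, with 173 and 198 counts in Eed cKO against 270 and 308 in WT (limma, adjusted p = 0.0545).

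Of 19 tested genes of the retinoblastoma family, E2F and the DREAM complex, E2f1 fell and 18 did not pass (median -0.11). E2f1, an activator of replication genes, had 98 and 139 counts in Eed cKO against 219 and 235 in WT, or 52.6% of WT (limma, adjusted p = 0.0485). The call was lost in limma without either WT library and, with all 4 libraries, under TMM factors, upper-quartile factors or no filter on low counts. Rb1, the gene of the retinoblastoma protein, had 766 and 725 counts in Eed cKO against 820 and 943 in WT (limma, adjusted p = 0.207). Of 20 E2F targets of S phase, 3 fell and 17 did not pass (median -0.51). Mcm7, a subunit of the replication helicase, had 155 and 150 counts in Eed cKO against 259 and 308 in WT (limma, adjusted p = 0.0226). Mcm6, of the same helicase, had 213 and 179 in Eed cKO against 327 and 404 in WT (limma, adjusted p = 0.0308). Rrm2, a subunit of ribonucleotide reductase, had 47 and 55 in Eed cKO against 107 and 105 in WT (limma, adjusted p = 0.0343). All 3 calls were lost in limma without WT B, and that of Rrm2 also without WT A and with DESeq2. With no filter on low counts Mcm7 alone passed. Intermediate progenitor markers, from cells that divide, fell in 3 of 7, of which Neurod4, at 4 and 5 counts in Eed cKO against 17 and 31 in WT, could pass the filter only through WT. The markers summed to 497 to 618 normalized counts in Eed cKO and 910 to 1087 in WT, and their part in these counts was not tested.

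Around Arf, 6 of 22 tested genes of the Mdm2 and p53 axis rose and 16 did not pass (median 0.20). Eda2r, a death receptor gene, had 81 and 83 counts in Eed cKO against 12 and 10 in WT (limma, adjusted p = 0.00798). WT B lay just below 10 normalized counts, so Eda2r could pass the filter only through Eed cKO. Phlda3, an inhibitor of Akt, had 523 and 491 in Eed cKO against 244 and 218 in WT (limma, adjusted p = 0.00798). Pmaip1, which encodes the death factor Noxa, had 115 and 147 in Eed cKO against 28 and 25 in WT (limma, adjusted p = 0.00909). These are p53 targets, as are Aen, Ccng1 and Tnfrsf10b, the others that rose. Not every p53 target of the list was higher. Sesn1 had 775 and 792 counts in Eed cKO against 947 and 1034 in WT (limma, log2 fold change -0.33, adjusted p = 0.072). Without WT A, with no filter or with a filter of 50 normalized counts, limma no longer called Tnfrsf10b. Trp53, the p53 gene, had 637 and 732 counts in Eed cKO against 772 and 760 in WT, and Mdm2, whose product Arf inhibits, had 973 and 906 in Eed cKO against 1016 and 1047 in WT (limma, adjusted p = 0.36 and 0.349). Both had all Eed cKO libraries below all WT libraries without passing, where the groups did not overlap in 56.8% of all tested genes.

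Of 23 tested regulators of the Cdkn2a locus, Eed fell and 22 did not pass (median -0.12), and Hmga2 was not analysed here. Ezh2, the methyltransferase partner of Eed, had 136 and 110 counts in Eed cKO against 167 and 231 in WT (limma, adjusted p = 0.121), and it passed as lower without WT A. Bmi1, the subunit of Polycomb repressive complex 1 best known for holding the locus down, had 820 and 893 in Eed cKO against 832 and 786 in WT (limma, adjusted p = 0.538). Of 18 ubiquitin ligase and regulator genes that set the stability of CIP/KIP and D cyclin proteins, 2 rose and 16 did not pass (median -0.06). Fbxw7, which targets cyclin E, had 2844 and 3036 counts in Eed cKO against 2318 and 2307 in WT (limma, adjusted p = 0.04). Dtl, the adaptor that marks the Cdkn1a protein for destruction in S phase, had 84 and 90 in Eed cKO against 45 and 31 in WT (limma, adjusted p = 0.0461). Both calls were lost in limma without WT B, and that of Dtl with DESeq2. With no filter on low counts neither passed.

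Of 20 listed senescence-associated genes, 11 had enough counts to be tested, of which Lmnb1 fell and 10 did not pass (median -0.19). Il6 and Mmp3 were not analysed here. Lmnb1, the lamin B1 gene whose loss accompanies senescence in cultured cells, had 279 and 244 counts in Eed cKO against 372 and 389 in WT, or 69.2% of WT (limma, adjusted p = 0.0496). In limma the call was lost without either WT library, and with all 4 libraries under TMM factors, upper-quartile factors, no filter or a pseudocount of 0.5. DESeq2 did not make it. Secreted factors of the list were scarce: Il1a, Il1b, Cxcl1, Ccl2, Mmp12 and Mmp13 had between 0 and 12 counts in every library. Gdf15, a stress cytokine gene, had 10 and 11 counts in Eed cKO against 2 and 1 in WT and was too low to be tested.

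**Figure D5:**
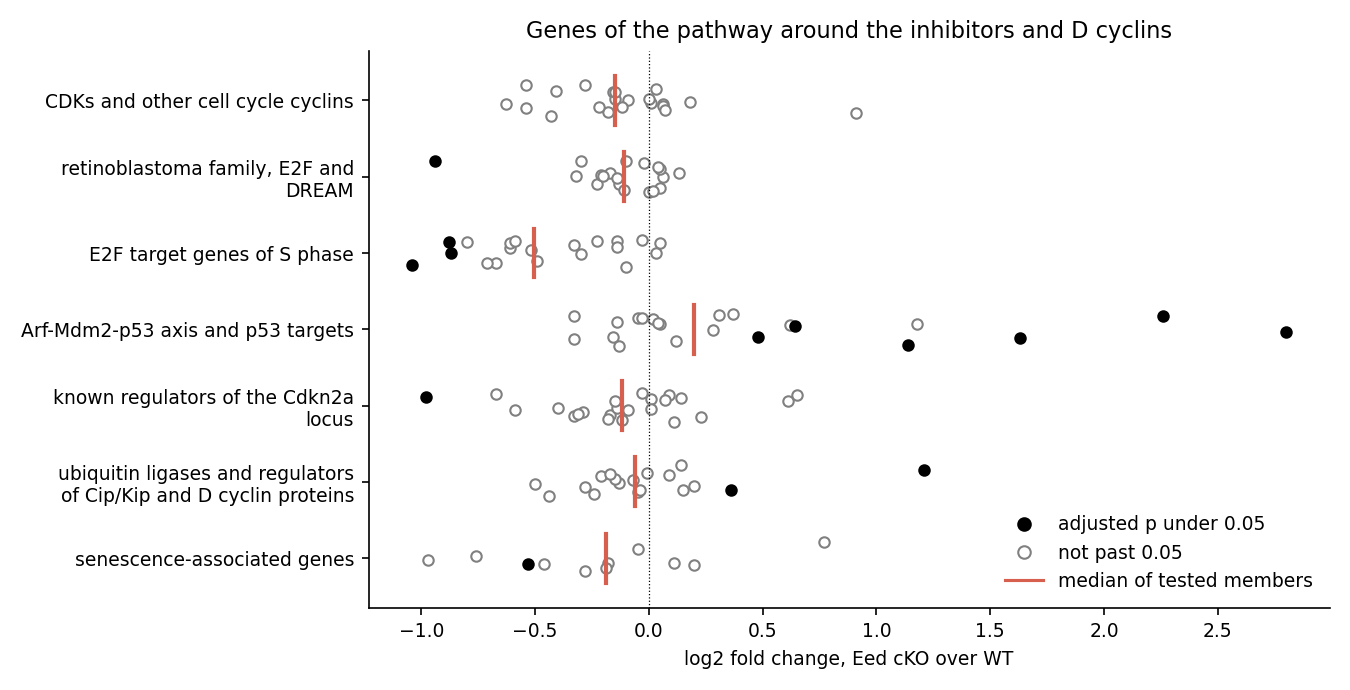
Log2 fold change, Eed cKO over WT, of each tested gene in 7 lists around the inhibitors and D cyclins. Filled points passed an adjusted p of 0.05, open points did not, and the vertical bar is the list's median. Filled points lie right of 0 in the p53 list (6) and left of 0 in the S phase list (3).

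The authors' deposited table gives the same 4 of 10 genes an adjusted p under 0.05. Its log2 fold changes are 9.60 for Cdkn2a, 1.82 for Cdkn2b, 1.13 for Cdkn1a and 1.18 for Ccnd1. For the other 6 the authors' deposited table gives log2 fold changes of -0.28 (Cdkn1b) to 0.37 (Cdkn1c), with adjusted p from 0.126 for Ccnd2 to 0.966 for Cdkn2c.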

How the data were processed

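The authors deposited a single table comparing Eed cKO with WT. The submitters' processing notes name HISAT2 2.1.0, DESeq2 1.2.0 and the build GRCm38. The sources used here do not give the counting tool, its annotation or whether it used strand. Per the file headers, columns hold a normalized signal averaged per group and over all libraries, log2 fold changes with standard errors, Wald scores, and p-values before and after adjustment.

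A group's deposited signal averages 2 counts, each divided by a size factor, and whole counts of both libraries were recovered from it for 100% of genes, within 1e-08. The replicate number of a recovered library is not known. DESeq2 1.42.0, rerun on them, differed from the deposited log2 fold changes by at most 6.76e-05.

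The main test was two-sided limma 3.58.1 (trend option) on log2(normalized count + 1), a scale that understates changes of low genes. It took the 15020 genes that reached 10 normalized counts in 2 or more libraries, with genotype as its term. P-values were adjusted over all these genes by Benjamini-Hochberg and judged at 0.05. Intervals are 95%, from 2 residual and 4 prior degrees of freedom. edgeR 4.0.16 called 999 genes, limma 967 and DESeq2 1077. P-values rest on the spread between 2 libraries per group. In limma that spread is drawn toward the spread of genes of like level, through the 4 prior degrees of freedom.

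Coordinates and exon lengths are from GENCODE M21 (GRCm38), with 99.9% of genes matched by ID. Levels per kb divide normalized counts by the union of exons of all annotated transcripts, so ranks between genes depend on annotated length. Promoters are RefSeq sequences of GRCm38.p6. The steps were tested on simulated data. The 10 genes and all lists were chosen with earlier results of these data known. Named genes are the 10, Eed, all genes of the table within 1 Mb of Cdkn2a, the 5 profiles nearest to it, Xist, and, by smallest p, up to 3 called members of each pathway list (1 member of a list with no call). Other genes (Cdk4, Cdk6, Rb1, Trp53, Mdm2, Ezh2, Bmi1, Aen, Ccng1, Tnfrsf10b, Sesn1, Prox1, Nov, Wfs1, Acta2, Tagln, Neurod4, Gdf15, the scarce secreted factors and the genes on the opposite strand) were named after their values were seen.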

Additional observations from a re-analysis of the deposited data

How the results depend on the processing

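The count of 4 of 10 genes stood, with the same 4 genes, with edgeR, DESeq2, TMM or upper-quartile factors, no filter, a filter of 50 normalized counts and pseudocounts of 0.5 and 5. An added term that marked Eed cKO A, the library rich in Xist, set that library aside and so repeated the fit without it. The log2 fold changes were the same in both, at 7.23 (Cdkn2a), 1.78 (Cdkn2b), 1.07 (Cdkn1a) and 1.01 (Ccnd1). Leaving out each library in limma or edgeR gave 0 to 6 of the 10, the highest in edgeR without WT A. The sign turned without WT B for Cdkn2c (0.02 in limma, 0.03 in edgeR) and Cdkn2d (-0.04 and -0.03). Over all left-out libraries they ran from -0.33 to 0.03 and from -0.04 to 0.38. Over all genes the count was 967, against 473 with no filter, 0 with the Xist term and 0 to 1669 without a library. The ratio of Ccnd1 to Ccnd2 kept its direction without each library.

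Without a library, edgeR counts ran from 0 to 1 for the kinases and cyclins, 0 to 1 for the retinoblastoma and E2F list, 0 to 3 for S phase targets, 0 to 7 for the p53 axis, 0 to 3 for regulators of the locus, 0 to 3 for the ubiquitin ligases and 0 to 2 for senescence genes. These counts take both directions together. The lone library of a group is assumed to vary like the others. No paired analysis was possible because the deposited columns are group means and the recovered libraries carry no replicate number.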
